A study of Homo sapiens with 12 samples.

Results

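Aldehyde dehydrogenases (ALDHs) were followed here through 10 genes of the family, chosen by name from the table of 58302 genes: ALDH1A1, ALDH1A3, ALDH1B1, ALDH2, ALDH3A1, ALDH3A2, ALDH3B1, ALDH7A1, ALDH9A1 and ALDH18A1. All 10 were found. RNA was sequenced from 4 cultured human pancreatic cancer cell lines, with 3 libraries each. BxPC-3 and CFPAC-1 are parental lines labelled sensitive and epithelial, and both came from pancreatic adenocarcinoma. The subline of each, CFPAC-1-GR or BxPC-3-GR, was made resistant to gemcitabine (GEM), a nucleoside drug, by long exposure to rising amounts of it. BxPC-3-GR is labelled mesenchymal and CFPAC-1-GR epithelial. Each resistant line is a single selected culture. Whether the 3 libraries of a line came from separate cultures is not stated, so the p-values measure the spread between these libraries, which may be technical. The levels below are FPKM, fragments scaled to the length of the gene and to the mapped fragments of the library, which allows comparison between genes.

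ALDHs oxidize aldehydes to carboxylic acids with NAD or NADP as cofactor. ALDH1A1, ALDH1A2 and ALDH1A3 make retinoic acid from retinaldehyde, and ALDH2 is the mitochondrial enzyme that clears acetaldehyde. The ALDH3 enzymes act on aromatic and fatty aldehydes. ALDH1B1 is mitochondrial, ALDH7A1 acts in lysine breakdown and ALDH9A1 in the synthesis of carnitine. ALDH18A1 makes a glutamate semialdehyde intermediate for proline and ornithine. ALDH activity is widely used to mark stem-like tumor cells, and the assay does not tell the members apart.

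The question asked of these genes was which members each line expresses, and which differ between a resistant line and its parent. A gene was tested in a comparison when its mean over the libraries compared reached 1 FPKM. A gene low in 1 line could thus be tested through its level in the other. Log2FC is the difference of mean log2(FPKM + 1) and understates the change of low genes. A gene was called significantly differentially expressed (SDE) when limma's adjusted p was below 0.05 and the absolute log2FC was above 1. For a single gene, 3 libraries against 3 cannot give an exact permutation p below 0.10.

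The depth implied by the smallest FPKM steps was 12600000 to 25200000 mapped fragments per library, lowest in CFPAC-1. Within lines, Spearman's rho between libraries was at least 0.9655. The parental CFPAC-1 libraries stood apart in base composition. Across genes, log2FC followed gene GC content with a rho of -0.777 in CFPAC-1-GR against CFPAC-1 and 0.628 in CFPAC-1 against BxPC-3, but 0.0388 in BxPC-3-GR against BxPC-3 and -0.0189 between the resistant lines. ALDH values corrected for this content and for gene length are therefore given wherever they change a call or a direction. Of the epithelial markers, CDH1 had means of 43.0 FPKM in BxPC-3 and 45.3 in BxPC-3-GR. It had 21.6 and 37.5 in CFPAC-1 and its resistant line. The keratin markers went the other way in the CFPAC-1 lines. KRT19 had 470, 483, 1573 and 531 FPKM in the same order, and KRT18 had 73.6, 69.5, 409 and 193. KRT7 and KRT8 were also lower in CFPAC-1-GR than in CFPAC-1, while EPCAM was higher (log2FC 0.45). KRT18 (-1.08) and KRT19 (-1.57) were SDE lower there, uncorrected. VIM, a mesenchymal marker, had 6.59, 0.813, 126 and 57.9 FPKM in the same order. In BxPC-3-GR, labelled mesenchymal, the mesenchymal markers moved both ways. VIM was SDE lower than in BxPC-3 (log2FC -2.06) and CDH2 SDE higher (1.10). By less than the fold criterion, SNAI2 fell from 41.2 to 23.0 FPKM (-0.81) and FN1 rose (0.68). ZEB1, ZEB2 and TWIST1 were below 0.1 FPKM in both BxPC-3 lines. PTPRC, the common leukocyte antigen, was listed at 0 in all 12 libraries, while CD68, a lysosomal gene that is also used as a macrophage marker, had 3.28, 1.06, 31.97 and 11.3 FPKM. The part of these differences in the ALDH values was not tested.

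The start regions of ALDH1A1, ALDH3B1 and ALDH18A1 are shown because these genes stand for different patterns below: ALDH1A1 was expressed in the CFPAC-1 lines and was near the detection limit in the BxPC-3 lines, ALDH3B1 differed among all 4 lines, and ALDH18A1 was high in all 4. Promoter entries in RefSeq (GRCh38.p14) were matched by symbol for 8 of the 10 genes, all but ALDH2 and ALDH3A1. Each line gives the 250 bases before the annotated start, on the strand of the gene, with each CG dinucleotide in capitals.
ALDH1A1, chr9:72953054-72953303, minus strand: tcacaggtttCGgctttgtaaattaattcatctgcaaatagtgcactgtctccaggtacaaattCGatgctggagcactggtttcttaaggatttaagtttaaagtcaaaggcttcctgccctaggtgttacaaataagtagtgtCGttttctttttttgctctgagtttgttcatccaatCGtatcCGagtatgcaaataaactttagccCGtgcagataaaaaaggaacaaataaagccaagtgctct
ALDH3B1, chr11:68008297-68008546, plus strand: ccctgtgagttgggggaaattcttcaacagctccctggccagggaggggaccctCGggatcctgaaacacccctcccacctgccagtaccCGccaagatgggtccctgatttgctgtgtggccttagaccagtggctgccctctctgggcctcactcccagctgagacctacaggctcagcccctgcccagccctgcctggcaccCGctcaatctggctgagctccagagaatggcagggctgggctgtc
ALDH18A1, chr10:95656712-95656961, minus strand: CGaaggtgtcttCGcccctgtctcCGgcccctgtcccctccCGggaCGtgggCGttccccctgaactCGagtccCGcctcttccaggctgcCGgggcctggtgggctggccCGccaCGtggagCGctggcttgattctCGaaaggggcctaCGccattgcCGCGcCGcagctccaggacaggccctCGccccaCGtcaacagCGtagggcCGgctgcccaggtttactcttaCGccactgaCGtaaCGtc
The ALDH1A1 stretch was 38.4% G and C, lower than in all but 10.1% of the 35116 promoter entries of this length, and it held 6 CG dinucleotides. ALDH3B1 had 63.6% G and C but only 3 CG dinucleotides in the entry shown, while its second entry, not shown, had 66.8% and 11, and ALDH18A1 had 68.8% and 24. ALDH1A3, the highest member, had the richest stretch, with 82.4% G and C and 38 CG dinucleotides. Its sequence lies within an exon of another transcript and is not printed. TATAAA was found in none of the entries of the 8 genes and in 10.7% of all entries, with both strands searched. CCAAT, the CCAAT box, was found once in ALDH1A1, ALDH1A3, ALDH1B1, ALDH7A1 and the second entry of ALDH3A2, and in 32.01% of all entries. GGGCGG, the GC box, was found 6 times in ALDH1A3, 4 times in the second entry of ALDH3A2 and 3 times in ALDH7A1. It was found 2 times each in ALDH1B1, ALDH9A1 and the second entry of ALDH3B1. None of the printed stretches held it, and 42.6% of all entries did. TGACNNNGC, the core of the antioxidant response element, was absent from the entries of all 8 genes and present in 10.9% of all. These matches are letters only and say nothing about binding.

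ALDH1A3 was the most abundant member in all 4 lines and in every library. Its gene lies on the plus strand of chromosome 15 (100877714 to 100916626, GRCh38). BxPC-3 had 183, 199 and 216 FPKM and BxPC-3-GR had 244, 243 and 243. CFPAC-1 had 116, 120 and 120 FPKM and CFPAC-1-GR had 150, 233 and 236. The parental CFPAC-1 libraries were the lowest, and the first library of CFPAC-1-GR lay well below the other two. ALDH1A3 made up 66.2% to 69.2% of the summed FPKM of the 10 genes in BxPC-3, 77.3% to 78.5% in BxPC-3-GR, 52.6% to 54.3% in CFPAC-1 and, more widely spread, 63.1% to 73.9% in CFPAC-1-GR, and these ranges of share did not overlap between a parental line and its resistant line. The summed FPKM of the 10 genes was 293 ± 18.1 in BxPC-3, 313 ± 2.98 in BxPC-3-GR, 223 ± 2.09 in CFPAC-1 and 293 ± 47.6 in CFPAC-1-GR (SD, n = 3 each). Without ALDH1A3, the sum was lower in every resistant library than in its parents, at 66.5 to 71.3 against 90.6 to 96.2 FPKM in the BxPC-3 lines, and at 83.7 to 88.0 against 101 to 105 in the CFPAC-1 lines. These sums were not tested.

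**Figure D1:**
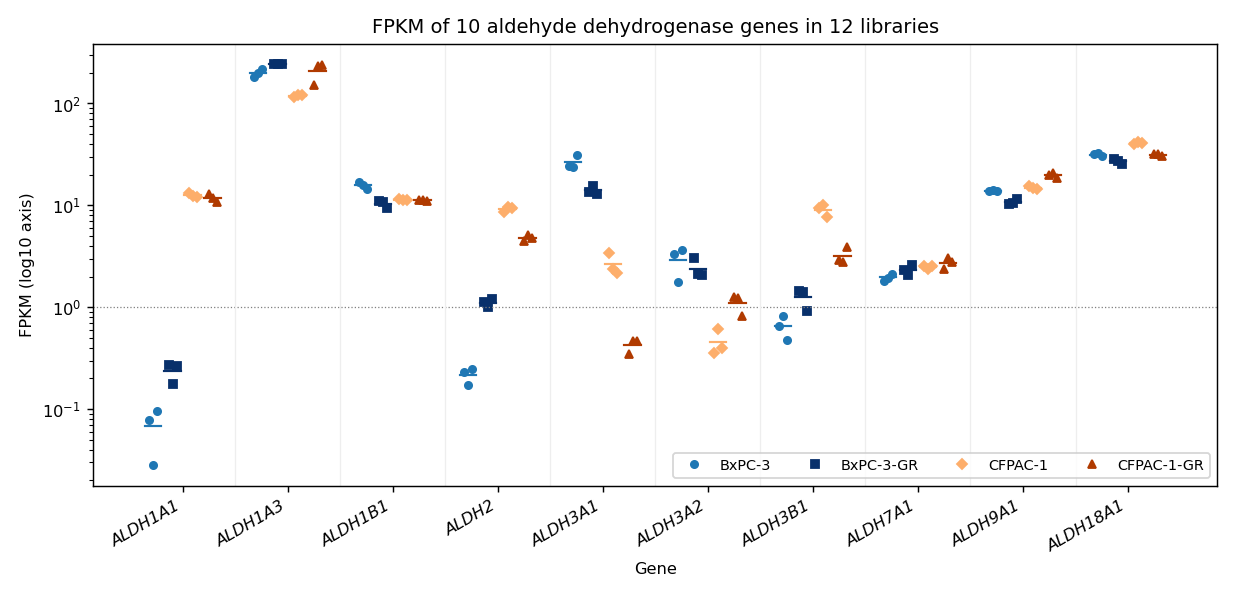
FPKM of each gene (log10 axis) in each of the 12 libraries, with a short line at the mean of the 3 libraries of a line and a dotted line at 1 FPKM. ALDH1A3 lies above 100 FPKM in all libraries, while ALDH1A1 runs from below 0.1 FPKM in BxPC-3 to above 10 in both CFPAC-1 lines.

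ALDH18A1 was the second most abundant member, with means of 31.6 FPKM in BxPC-3, 41.0 in CFPAC-1 and 27.1 and 31.5 in their resistant lines, although in BxPC-3 its range overlapped that of ALDH3A1. ALDH9A1 and ALDH1B1 lay between 9.35 and 20.6 FPKM in every library, and ALDH7A1 between 1.81 and 3.03. These genes were expressed in every library of all 4 lines, with means of ALDH9A1 from 10.8 FPKM in BxPC-3-GR to 19.7 in CFPAC-1-GR. ALDH3A1, ALDH1A1 and ALDH2 varied far more. Over the 4 line means of log2(FPKM + 1), the range was 4.26 for ALDH3A1, 3.66 for ALDH1A1 and 3.07 for ALDH2.

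The gap between the parental lines was wide for ALDH1A1, the retinaldehyde dehydrogenase that is the usual antibody marker of ALDH-positive tumor cells. It lies on the minus strand of chromosome 9 (72900662 to 73080442). BxPC-3 had 0.0791, 0.0280 and 0.0966 FPKM and BxPC-3-GR had 0.273, 0.178 and 0.266. CFPAC-1 had 13.2, 12.3 and 12.1 FPKM, and CFPAC-1-GR had 12.9, 11.8 and 10.9. Both CFPAC-1 lines lay far above both BxPC-3 lines, and the CFPAC-1 lines overlapped each other. By the joined exon length of the gene, the BxPC-3 values stand for about 1.57 to 4.70 fragments per library and those of BxPC-3-GR for 10.97 to 19.6, against 441 to 799 in the CFPAC-1 lines. The length the authors used is not stated, so these are approximate. ALDH1A1 was SDE between the parental lines (log2FC 3.66, standard error 0.0584, limma adjusted p = 8.0e-08) and between the resistant lines (log2FC 3.37, standard error 0.0779, adjusted p = 3.1e-07). As a share of ALDH1A1 plus ALDH1A3 FPKM, ALDH1A1 was 9.16% to 10.2% in CFPAC-1, from 4.41% up to 7.88% in CFPAC-1-GR and at most 0.112% in the BxPC-3 lines, so ALDH1A3 exceeded ALDH1A1 in every library.

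ALDH2, on the plus strand of chromosome 12 (111766887 to 111817529), followed the same order of lines. BxPC-3 had 0.233, 0.175 and 0.248 FPKM and BxPC-3-GR had 1.12, 1.01 and 1.19. CFPAC-1 had 8.67, 9.62 and 9.46 FPKM and CFPAC-1-GR had 4.43, 5.17 and 4.82. The libraries of the 4 lines did not overlap, and the resistant lines lay between the parents. ALDH2 was SDE between the parental lines (log2FC 3.07, standard error 0.0608, adjusted p = 1.2e-07) and between the resistant lines (log2FC 1.46, standard error 0.0736, adjusted p = 6.6e-06). A gene on the same strand, AC002996.1, overlaps ALDH2 and reached 2.12 FPKM, so fragments of the pair could be shared.

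ALDH3A1 and ALDH3A2 are neighbors on chromosome 17, ALDH3A1 on the minus strand (19737984 to 19748943) and ALDH3A2 on the plus strand (19648136 to 19677598). ALDH3A1, a cytosolic enzyme for aromatic and lipid-derived aldehydes that is abundant in the cornea, had 24.6, 23.6 and 31.03 FPKM in BxPC-3 and 13.6, 15.6 and 12.9 in BxPC-3-GR. CFPAC-1 had 3.44, 2.40 and 2.17 FPKM and CFPAC-1-GR had 0.347, 0.471 and 0.462. The 4 lines did not overlap, and each resistant line lay below its parent. ALDH3A1 was lower in CFPAC-1 than in BxPC-3 (log2FC -2.91, standard error 0.158, adjusted p = 4.1e-06) and lower in CFPAC-1-GR than in BxPC-3-GR (log2FC -3.39, standard error 0.0861, adjusted p = 4.3e-07), SDE both times. ALDH3A2, the fatty aldehyde dehydrogenase of the endoplasmic reticulum whose loss causes Sjögren-Larsson syndrome, had 3.37, 1.77 and 3.67 FPKM in BxPC-3 and 3.02, 2.10 and 2.06 in BxPC-3-GR. CFPAC-1 had 0.356, 0.613 and 0.402 FPKM and CFPAC-1-GR had 1.26, 1.23 and 0.823. Both BxPC-3 lines overlapped each other and lay above both CFPAC-1 lines. ALDH3A2 was SDE between the parental lines (log2FC -1.40, standard error 0.204, adjusted p = 6.1e-04), and between the resistant lines its log2FC of -0.69 (standard error 0.137, adjusted p = 0.0043) missed the fold criterion.

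ALDH3B1, on the plus strand of chromosome 11 (68008578 to 68029282), encodes a membrane-anchored enzyme for medium- and long-chain aldehydes. It had 0.661, 0.812 and 0.480 FPKM in BxPC-3 and 1.45, 1.41 and 0.925 in BxPC-3-GR. CFPAC-1 had 9.49, 9.98 and 7.63 FPKM and CFPAC-1-GR had 2.92, 2.77 and 3.93. The order of lines was that of ALDH2, again with no overlap. ALDH3B1 was SDE between the parental lines (log2FC 2.60, standard error 0.118, adjusted p = 1.8e-06), and between the resistant lines its log2FC was 0.90 (standard error 0.139, adjusted p = 0.0013). ALDH3B2, a close paralog with which fragments could be shared, was at most 1.25 FPKM in any library.

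In all, 5 of the 10 genes tested in CFPAC-1 against BxPC-3 were SDE, 3 higher and 2 lower, against 44.5% of all 11842 genes tested (19.8% higher and 24.7% lower). An adjusted p below 0.05 was reached by 9, against 84.2% of all genes tested, and the libraries did not overlap for all 10, against 59.0% of the 29350 genes above 0. In CFPAC-1-GR against BxPC-3-GR, 3 of 10 were SDE, 2 higher and 1 lower, against 17.1% of 12330 genes (10.3% higher and 6.80% lower). Here 7 had an adjusted p below 0.05, against 65.3% of all genes tested, and the libraries did not overlap for 8, against 49.9% of the 30937 genes above 0. Unlike the 10 members, both sets of genes above 0 include genes below the minimum of 1 FPKM, so these shares are not for genes of like level. ALDH1A1, ALDH2 and ALDH3A1 were SDE in both. Between the parental lines, ALDH1A1, ALDH2 and ALDH3B1 had means below 1 FPKM in BxPC-3, and ALDH3A2 in CFPAC-1. These genes reached the minimum only through the line where they were high, as did ALDH1A1 and ALDH3A1 between the resistant lines. The median log2FC of the 10 genes was 0.17 between the parental lines and 0.18 between the resistant lines, against -0.10 and 0.09 over all genes tested. Once corrected for GC content and length, the SDE genes between the parental lines were the same 5, with log2FC values of 4.34 for ALDH1A1, 3.41 for ALDH2, 1.87 for ALDH3B1, -3.84 for ALDH3A1 and -1.07 for ALDH3A2. With a pseudocount of 0.1, ALDH3A2 (-1.05) and ALDH3B1 (1.29) were SDE between the resistant lines too. The comparisons of the parental and of the resistant lines share no libraries.

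**Figure D2:**
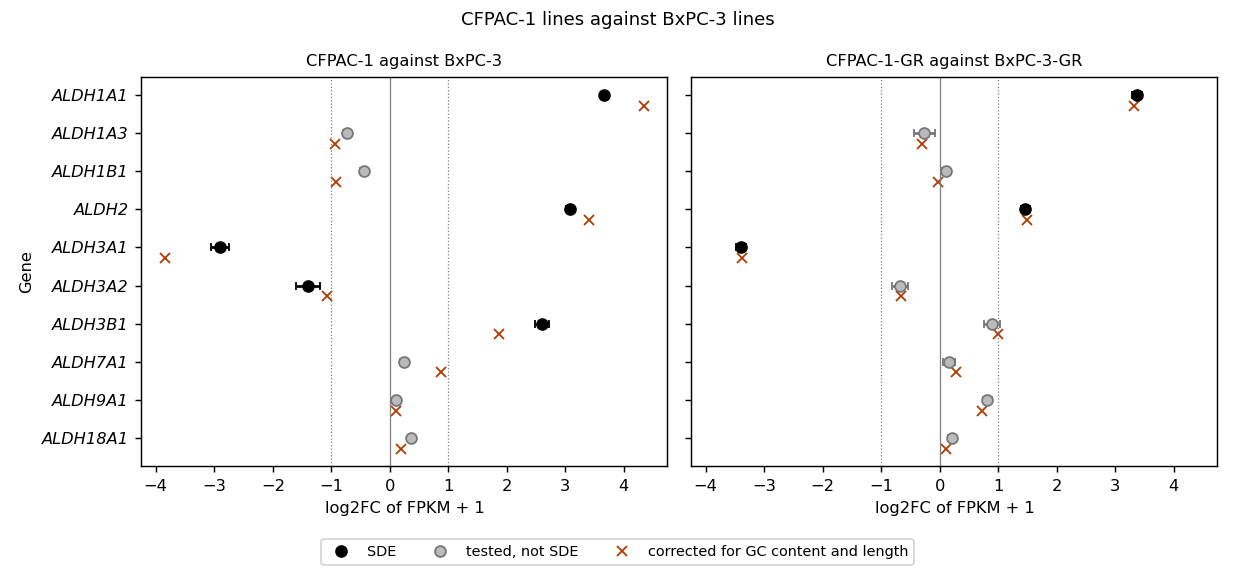
Log2FC of FPKM + 1 of the 10 genes in CFPAC-1 against BxPC-3 (left) and CFPAC-1-GR against BxPC-3-GR (right), with standard errors, SDE genes in black and values corrected for GC content and length as crosses. ALDH1A1 and ALDH2 lie to the right and ALDH3A1 to the left in both panels.

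The other 5 members differed less between the parental lines, and none was SDE in either comparison with the main settings. Over the alternative settings given below, the log2FC between the parental lines reached -1.08 for ALDH1A3, -1.17 for ALDH1B1 and 1.26 for ALDH7A1. ALDH1A3 was lower in CFPAC-1 than in BxPC-3 (log2FC -0.73, standard error 0.0726, adjusted p = 8.1e-05), and between the resistant lines its log2FC was -0.26 (standard error 0.175, adjusted p = 0.22). ALDH18A1 was higher in CFPAC-1 than in BxPC-3 (log2FC 0.37, adjusted p = 5.5e-04), with 0.20 after the correction (adjusted p = 0.0087) and 0.086 with a pseudocount of 0.1 as well (adjusted p = 0.21). Between the resistant lines it had 0.21 (adjusted p = 0.027), which did not pass after the correction (0.11, adjusted p = 0.16), with either other scaling or in 4 of 6 fits that left out a library. ALDH9A1 did not pass between the parental lines (log2FC 0.10, adjusted p = 0.11), except with upper-quartile (0.38, adjusted p = 4.8e-04) or median-of-ratios scaling, and was higher in CFPAC-1-GR than in BxPC-3-GR (0.81, standard error 0.0755, adjusted p = 1.1e-04). ALDH1B1, which encodes a mitochondrial enzyme of the acetaldehyde and retinaldehyde group, was lower in CFPAC-1 than in BxPC-3 (log2FC -0.43, adjusted p = 8.8e-04, and -0.15 with adjusted p = 0.079 after upper-quartile scaling), and between the resistant lines it had 0.11 (adjusted p = 0.26). ALDH7A1 had log2FC values of 0.24 (adjusted p = 0.0097) and 0.16 (adjusted p = 0.19).

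In BxPC-3-GR against BxPC-3, no ALDH member was SDE by limma among the 7 tested, against 7.76% of 11710 genes (4.14% higher and 3.62% lower). At an unadjusted p below 0.05 there were 5. The same 5 had an adjusted p below 0.05, against 57.7% of all genes tested. ALDH1A3 rose (log2FC 0.29, standard error 0.0698, adjusted p = 0.013), but did not pass with all 12 libraries in 1 fit (adjusted p = 0.11). ALDH3A1 fell by 0.86 on the log2 scale (standard error 0.121, adjusted p = 0.0014), to 0.531 times its parental mean. ALDH1B1 fell from 15.7 ± 1.22 to 10.4 ± 0.920 FPKM (log2FC -0.55, adjusted p = 0.0021) and ALDH9A1 from 13.9 ± 0.166 to 10.8 ± 0.751 (log2FC -0.34, adjusted p = 0.0037; SD, n = 3 each). ALDH18A1 fell by 0.21 (adjusted p = 0.022), which did not pass in 4 of 6 fits that left out a library (adjusted p up to 0.071). ALDH7A1 had a log2FC of 0.17 (adjusted p = 0.11) and ALDH3A2 one of -0.19 (standard error 0.221, adjusted p = 0.50). The 5 genes that passed, 1 higher and 4 lower, moved by less than the fold criterion.

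ALDH1A1, ALDH2 and ALDH3B1 had means below the minimum of 1 FPKM over the libraries of both BxPC-3 lines and were not tested. In BxPC-3-GR alone, ALDH2 had a mean of 1.11 FPKM and ALDH3B1 one of 1.26. For each of them every BxPC-3-GR library lay above every BxPC-3 library, as the values above show, which held in either direction for 43.1% of all 28777 genes with a value above 0. The ratio of mean FPKM was 5.06 for ALDH2, 1.93 for ALDH3B1 and 3.52 for ALDH1A1, the last from a few fragments per library. With a pseudocount of 0.1 and no filter, a setting chosen after the values were seen, ALDH2 was SDE (log2FC 1.92, adjusted p = 4.9e-04) and so was ALDH1A1 (1.02, adjusted p = 0.019), while ALDH3B1 had 0.86 (adjusted p = 0.051). All 3 remained below 1.5 FPKM in BxPC-3-GR.

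In CFPAC-1-GR against CFPAC-1, 9 members were tested and 2 were SDE, both lower, against 32.2% of 12051 genes (20.5% higher and 11.7% lower). ALDH3A1 fell from 2.67 ± 0.679 to 0.427 ± 0.0695 FPKM (SD, n = 3 each) and reached the minimum of 1 FPKM only through CFPAC-1. Its log2FC was -1.35 (standard error 0.132, adjusted p = 7.7e-05) and the ratio of the means 0.160. ALDH3B1 fell from 9.03 ± 1.24 to 3.21 ± 0.631 FPKM (SD, n = 3 each), with log2FC -1.26 (standard error 0.137, adjusted p = 1.3e-04). Both genes had the highest GC content of the 10, at 59.5%. Corrected for GC content and length, their log2FC values were -0.47 (adjusted p = 0.016) and -0.52 (adjusted p = 0.011), so both were lower still but no longer SDE. On the log2(FPKM + 0.1) scale the corrected value of ALDH3A1 was -1.24 (adjusted p = 0.0015), which was SDE, and that of ALDH3B1 was -0.53 (adjusted p = 0.026).

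ALDH2 fell to 0.519 times its CFPAC-1 mean (log2FC -0.82, standard error 0.0777, adjusted p = 6.4e-05). It was SDE after the correction (log2FC -1.16, adjusted p = 7.0e-05). Its GC content was 47.6%. ALDH1A3 rose from 119 ± 2.25 to 206 ± 48.8 FPKM (SD, n = 3 each; log2FC 0.76, standard error 0.175, adjusted p = 0.0057), and without the first CFPAC-1-GR library the log2FC was 0.97. With upper-quartile scaling it was 0.33 (adjusted p = 0.13). ALDH9A1 rose (log2FC 0.37, adjusted p = 0.0022) and ALDH18A1 fell (log2FC -0.37, adjusted p = 0.0011). With upper-quartile scaling ALDH9A1 had -0.04. In all, 6 of the 9 had an adjusted p below 0.05, against 79.6% of all genes tested.

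ALDH1A1 had a log2FC of -0.08 (standard error 0.0803, adjusted p = 0.40), ALDH1B1 one of -0.01 (standard error 0.0593, adjusted p = 0.85) and ALDH7A1 one of 0.09 (standard error 0.0838, adjusted p = 0.33). These 3 near-zero values depended on the correction, with which they were -0.72 (adjusted p = 1.9e-04), 0.37 (adjusted p = 0.0015) and -0.58 (adjusted p = 0.0048). The GC content was 41.9% for ALDH1A1, 52.1% for ALDH1B1 and 45.9% for ALDH7A1. ALDH3A2 had a mean below the minimum over the libraries of both CFPAC-1 lines and was not tested. Its CFPAC-1-GR libraries lay above those of CFPAC-1, with a ratio of means of 2.41, which held in either direction for 53.4% of all 29966 genes above 0. Unfiltered and with a pseudocount of 0.1, ALDH3A2 was SDE higher (log2FC 1.12, adjusted p = 0.012).

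**Figure D3:**
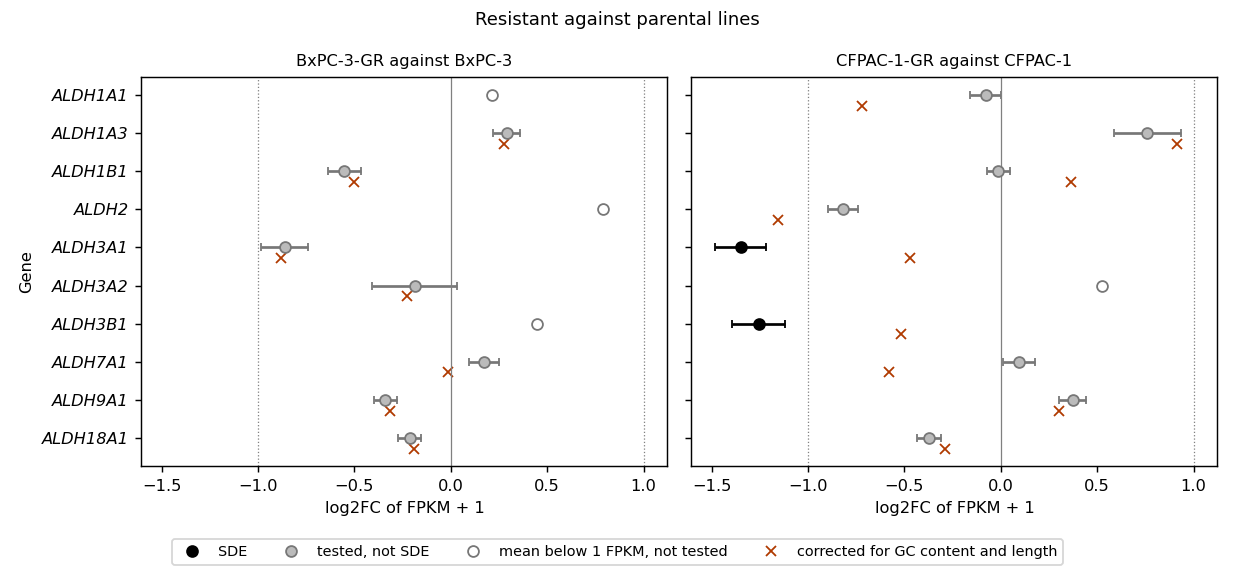
Log2FC of FPKM + 1 of the 10 genes in BxPC-3-GR against BxPC-3 (left) and CFPAC-1-GR against CFPAC-1 (right), with standard errors, SDE genes in black, untested genes as open circles and corrected values as crosses. The crosses lie near the circles on the left and away from them for several genes on the right, ALDH3A1 and ALDH3B1 among them.

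Whether the response differed between the BxPC-3 and CFPAC-1 backgrounds was tested with all 12 libraries in an interaction, coded as the change in the CFPAC-1 lines minus that in the BxPC-3 lines. Of the 10 members, 2 were SDE, both negative, against 38.0% of 12210 genes (23.6% positive and 14.4% negative). In all, 7 had an adjusted p below 0.05, against 76.6% of all genes tested. ALDH2 had a difference of -1.61 (standard error 0.0917, adjusted p = 5.9e-08), with a higher level in BxPC-3-GR than in BxPC-3 and a lower level in CFPAC-1-GR than in CFPAC-1. ALDH3B1 had -1.71 (standard error 0.195, adjusted p = 1.2e-05) with the same directions. After the correction ALDH2 had -1.87 and ALDH3B1 had -0.87, so that only ALDH2 was still SDE. Among the others, ALDH9A1 had 0.71 (adjusted p = 2.0e-05), ALDH3A2 0.71 (adjusted p = 0.030), ALDH1B1 0.54 (adjusted p = 5.0e-04), ALDH3A1 -0.49 (adjusted p = 0.037) and ALDH1A1 -0.29 (adjusted p = 0.015). The value of ALDH3A1 turned to 0.45 after the correction (adjusted p = 0.060) and did not pass in 7 of 12 fits that left out a library (adjusted p up to 0.086). That of ALDH3A2 was 0.45 after the correction (adjusted p = 0.16) and did not pass in 8 of 12 (up to 0.072), and that of ALDH1B1 was 0.098 with upper-quartile scaling (adjusted p = 0.44). Averaged over both BxPC-3 lines, ALDH1A1, ALDH2 and ALDH3B1 were below the minimum. They entered the interaction through their levels in the CFPAC-1 lines, and ALDH1A1 rested on a few fragments per BxPC-3 library. ALDH1A3 (0.47, adjusted p = 0.055), ALDH18A1 (-0.16, adjusted p = 0.076) and ALDH7A1 (-0.08, adjusted p = 0.54) did not pass. After the correction ALDH1A3 had 0.65 (adjusted p = 0.013) and ALDH7A1 -0.53 (adjusted p = 0.0054). Without the first CFPAC-1-GR library, ALDH1A3 had 0.68 (adjusted p = 7.7e-05), and without the third BxPC-3-GR library ALDH18A1 had -0.20 (adjusted p = 0.032).

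Of the 9 other ALDH genes listed, 4 were tested in the BxPC-3 resistant comparison and none was SDE, against 7.76% of all genes tested. In the CFPAC-1 resistant comparison, 5 were tested and 3 were SDE, all lower, against 32.2% of all genes tested (11.7% lower). No list count here or below was tested against such shares. ALDH16A1 had a log2FC of -1.44 (adjusted p = 6.3e-06), ALDH1A2 one of -1.40 (adjusted p = 7.0e-05) and ALDH4A1, which breaks down proline, one of -1.24 (adjusted p = 7.3e-04). Only ALDH1A2 was SDE after the correction (-1.36), with -0.48 for ALDH16A1 and -0.29 for ALDH4A1. Between the parental lines 3 of 6 were SDE higher in CFPAC-1 and ALDH1L1 was lower. Of these, ALDH1A2 (log2FC 2.64, corrected 2.57) and ALDH1L1 (-1.03, corrected -1.47) were SDE with the correction too, which added ALDH6A1 (1.74). Between the resistant lines ALDH5A1 alone of 4 was SDE (log2FC 1.39). Over all genes tested, 44.5% were SDE between the parental lines and 17.1% between the resistant lines. ALDH1A2, the retinaldehyde dehydrogenase of the embryo, had 0.0713 ± 0.0288 FPKM in BxPC-3, 0.0846 ± 0.00853 in BxPC-3-GR, 5.77 ± 1.18 in CFPAC-1 and only 1.54 ± 0.0949 in CFPAC-1-GR (SD, n = 3 each). Like ALDH1A1, it was found in the CFPAC-1 lines and was near the detection limit in the BxPC-3 lines.

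The genes that bring retinaldehyde to ALDH1A enzymes were compared next. Of 13 genes for retinoid supply and breakdown, 7 were tested in BxPC-3-GR against BxPC-3 and none was SDE, against 7.76% of all genes tested. In CFPAC-1-GR against CFPAC-1, 9 were tested and 2 were SDE, both lower, against 32.2% of all genes tested (11.7% lower). Among these 2 was RBP4, the retinol carrier of plasma (10.7 ± 0.575 to 1.02 ± 0.0367 FPKM, log2FC -2.53; SD, n = 3 each), which was SDE with the correction too (-1.58). The correction gave 1 SDE higher and 3 lower, adding STRA6, a retinol transporter (1.51), and DHRS9 (-1.65). RDH10, which oxidizes retinol to retinaldehyde, rose in both, with log2FC values of 0.35 (adjusted p = 0.0043) in BxPC-3-GR and 0.94 (adjusted p = 2.5e-04) in CFPAC-1-GR. DHRS9, another retinol dehydrogenase, fell in both, by 0.95 (adjusted p = 9.5e-05) and 0.83 (adjusted p = 8.6e-04), and was SDE lower in both comparisons of the CFPAC-1 lines with the BxPC-3 lines. Of the enzymes that break down retinoic acid, CYP26A1 and CYP26C1 were at most 0.102 FPKM in any library, while CYP26B1 had means of 0.987 FPKM in BxPC-3, 1.07 in BxPC-3-GR, 0.488 in CFPAC-1 and 0.295 in the resistant CFPAC-1 line.

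Among 14 genes that bind retinoic acid or respond to it, RARB, a receptor that is itself a retinoic acid target, was SDE in BxPC-3-GR, from 0.497 ± 0.0594 to 2.06 ± 0.346 FPKM (log2FC 1.02, adjusted p = 2.2e-04; SD, n = 3 each), the only one of 8 tested. TGM2, a transglutaminase induced by retinoic acid, was the only one of 7 in CFPAC-1-GR and fell from 834 ± 45.8 to 380 ± 65.7 FPKM (log2FC -1.15, adjusted p = 2.0e-04; SD, n = 3 each). Corrected, TGM2 had -0.77 and was not SDE. Among all genes tested, 7.76% were SDE in BxPC-3-GR and 32.2% (11.7% lower) in CFPAC-1-GR. Between the parental lines 4 of 7 were SDE, higher in CFPAC-1, against 44.5% of all genes tested (19.8% higher): RARRES3 (log2FC 6.36), TGM2 (3.27), RARA (2.11) and RARG (1.06). The correction left 3 higher, without RARG (0.20), and added RXRA (-1.28) and FABP5, a fatty acid and retinoic acid carrier (-1.05), as SDE lower. Between the resistant lines RARRES3 (5.60), TGM2 (2.27) and RARA (1.16) were SDE higher and RXRA (-1.64) and RARB (-1.46) lower, of 8 tested, against 17.1% of all genes tested. The CFPAC-1 lines, which expressed ALDH1A1 and ALDH1A2 beside ALDH1A3, thus also had the higher TGM2 and RARRES3 levels, while ALDH1A3 itself was lower in CFPAC-1 than in BxPC-3.

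**Figure D4:**
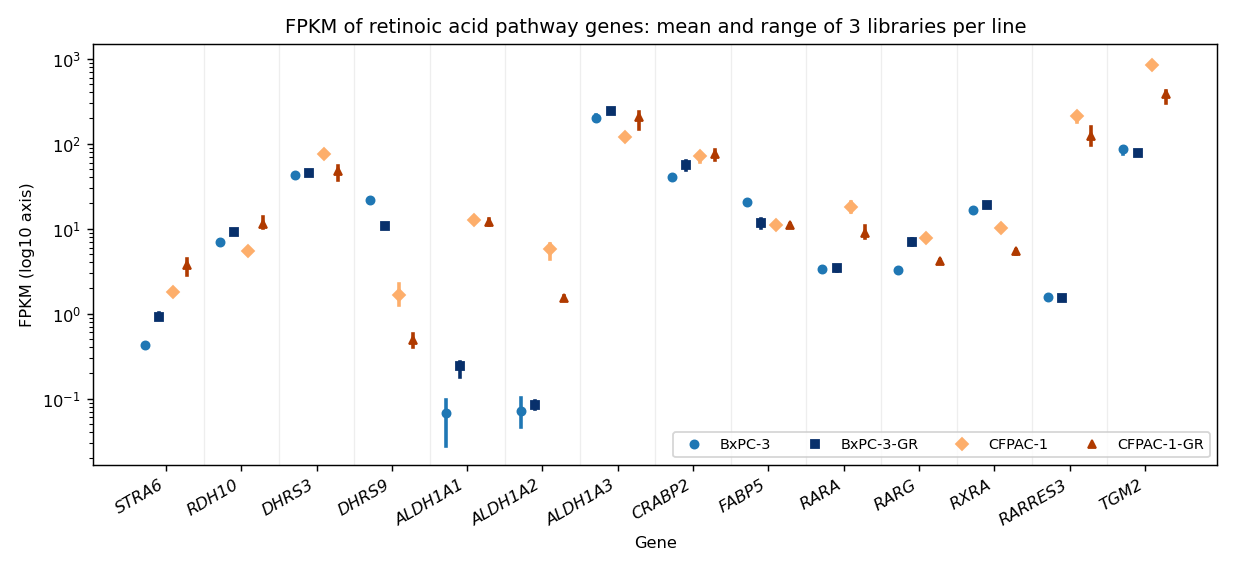
Mean FPKM (symbols, log10 axis) and range of the 3 libraries (bars) of each line for retinoid supply genes, the ALDH1A genes, and retinoic acid binding proteins, receptors and targets. ALDH1A1, ALDH1A2, RARRES3 and TGM2 are higher in both CFPAC-1 lines, and DHRS9 is higher in both BxPC-3 lines.

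Of 19 alcohol and carbonyl enzymes, which make or remove the same aldehydes, 1 was SDE higher and 1 lower among 11 tested in BxPC-3-GR: PTGR1, a reductase of lipid-derived enals (log2FC 1.004, adjusted p = 1.6e-04), and CBR3, a carbonyl reductase (log2FC -1.18, adjusted p = 7.9e-04). In CFPAC-1-GR 3 of 11 were SDE, all lower: AKR7A2 (-1.64), ADH1C (-1.20) and AKR7A3 (-1.15). The share of all genes tested that was SDE was 7.76% in BxPC-3-GR and 32.2% (11.7% lower) in CFPAC-1-GR. Corrected, ADH1C had -1.49 and was SDE, as was AKR1C3 (-1.07), while AKR7A2 (-0.52) and AKR7A3 (-0.03) were not. ADH1C, an alcohol dehydrogenase that produces the acetaldehyde used by ALDH2, had 24.6 ± 1.69 FPKM in CFPAC-1 and 10.1 ± 0.508 in CFPAC-1-GR, against 0.180 ± 0.0773 in BxPC-3 and 0.0967 ± 0.0444 in BxPC-3-GR (SD, n = 3 each). It was thus higher in the same pair of lines as ALDH2 and SDE between both pairs. AKR1B10 and AKR1C1, reductases of retinaldehyde and of other carbonyls, were SDE the opposite way, lower in the CFPAC-1 lines in both comparisons (log2FC -1.23 and -2.05 between the parental lines, -1.74 and -1.78 between the resistant lines). AKR1C1 and AKR1C2 are near-identical, so their split is uncertain.

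ALDH18A1 was set beside 9 genes of proline and ornithine synthesis, of which 8 were in the table and 6 were tested in each comparison. None was SDE in BxPC-3-GR. In CFPAC-1-GR, where ALDH18A1 fell by 0.37, PYCR1 (log2FC -1.48) and PYCR3 (-1.45), reductases of the last step of proline synthesis, were SDE lower, and OAT, ornithine aminotransferase (1.23), was SDE higher. None of these 3 was SDE after the correction, with -0.43, -0.38 and 0.48 in this order. Over all genes tested, 7.76% were SDE in BxPC-3-GR, 32.2% in CFPAC-1-GR and 44.5% between the parental lines. Between the parental lines PYCR1 and PYCR3 were SDE higher in CFPAC-1 (log2FC 1.56 and 1.55) and OAT lower (-2.59), and of these 3 OAT alone was SDE when corrected (-1.79), beside ARG2, an arginase (-1.02). Of 8 genes of lysine, choline and carnitine steps, around ALDH7A1 and ALDH9A1, 6 were tested and 1 was SDE in CFPAC-1-GR: AASS, which opens lysine breakdown (log2FC 1.19, adjusted p = 2.1e-05), which had 0.53 after the correction. None was SDE in BxPC-3-GR. Of 7 genes of fatty aldehyde and sphingolipid steps, around ALDH3A2, FAR1 was the only SDE gene in CFPAC-1-GR, of 4 tested, and none of 5 was SDE in BxPC-3-GR, where SPHK1, a sphingosine kinase, had -0.95 and, corrected, -1.07, which was SDE. FAR1, which reduces fatty acyl-CoA to fatty alcohol, had 17.9 ± 1.44 FPKM in BxPC-3, 13.7 ± 0.427 in BxPC-3-GR, 1.52 ± 0.194 in CFPAC-1 and, far higher, 24.0 ± 4.08 in CFPAC-1-GR (SD, n = 3 each), a log2FC of 3.30 in CFPAC-1-GR (adjusted p = 6.3e-06) and of 2.15 after the correction.

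The genes whose pattern was most like the 3 most variable members were sought by Pearson's r of log2(FPKM + 1) over the 12 libraries, among the 12210 genes that reached a mean of 1 FPKM. The libraries of a line share their origin, so these values are descriptions. For ALDH3A1 they were KRT17 (r = 0.994), PLTP (0.992) and TOMM34 (0.992). For ALDH2 they were FAHD2CP, ETNK2 and HDAC6 (each 0.997), and for ALDH1A1 KLHDC7A (0.999), UNC5CL (0.998) and RPS4Y1 (0.998). High values were common, as 95 genes had an r above 0.95 with ALDH3A1, 586 with ALDH2 and 520 with ALDH1A1.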

How the data were processed

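The 12 RNA libraries were 3 replicates of each of 4 lines. The authors deposited FPKM values for 58302 genes, made with GRCh38 and Ensembl release 91. The submitters' processing notes name Trimmomatic 0.27, FastQC 0.10.1 and TopHat2 2.0.8. The program that computed FPKM is not given in the sources used here, and the table holds no counts. Low FPKM values were whole multiples of a fragment in 99.4% to 99.8% of single-transcript genes (tolerance 0.1), which gave the depths.

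Groups were taken from the sample titles. Log2(FPKM + 1) was fitted with limma 3.58.1 in R 4.3.3 on the libraries compared, for genes that reached a mean of 1 FPKM, with Benjamini-Hochberg adjustment over all genes tested. The interaction used all 12 libraries. GC content and exon length came from GENCODE release 29, to which 58039 genes of the table were matched, and the correction was a spline with 5 degrees of freedom for each. The procedure was tested on simulated data. The ALDH genes, the lists and the tests were chosen with earlier results of these data known. All 10 members are named, and of each list up to 4 SDE genes per comparison by absolute log2FC. Some list genes are counted but not reported here. Other list genes, the markers named and the motifs were chosen after their values were seen. Alternatives are given below. Figures were drawn with matplotlib 3.10.9 in Python 3.11.15.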

Additional observations from a re-analysis of the deposited data

Results flagged for a closer look

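The response of ALDH2 to resistance differed between the lines by -1.61 on the log2 scale (limma interaction, adjusted p = 5.9e-08). ALDH2 was higher in 3 of 3 BxPC-3-GR libraries than in every BxPC-3 library and lower in 3 of 3 CFPAC-1-GR libraries than in every CFPAC-1 library. With a library left out, the difference lay between -1.65 and -1.56. The response of ALDH3B1 differed by -1.71 (adjusted p = 1.2e-05), with the same directions in 3 of 3 libraries of each resistant line. Its difference was -0.87 when corrected for GC content and length (adjusted p = 0.0015), which is below the fold criterion. Averaged over both BxPC-3 lines, both genes were below the minimum of 1 FPKM, although their means in BxPC-3-GR alone were above it. They entered the interaction through their levels in the CFPAC-1 lines. The fits that left out a library used the same filter.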

How the results depend on the processing

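The counts of SDE members are named here in the order BxPC-3-GR against BxPC-3 (0), CFPAC-1-GR against CFPAC-1 (2), CFPAC-1 against BxPC-3 (5), CFPAC-1-GR against BxPC-3-GR (3) and the interaction (2). Leaving out each library in turn changed none of these counts. The log2FC of ALDH1B1 in CFPAC-1-GR then lay between -0.022 and 0.0037 (limma adjusted p from 0.77 to 0.97). With no filter, all 12 libraries in 1 fit and protein-coding genes only, and with both other scalings, the counts were within 1.5 times those values.

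The correction for GC content and length gave 1 SDE member in CFPAC-1-GR, ALDH2, and 1 in the interaction. Under it, log2FC turned to -0.013 for ALDH7A1 in BxPC-3-GR, to 0.37 for ALDH1B1 and -0.58 for ALDH7A1 in CFPAC-1-GR, to -0.030 for ALDH1B1 between the resistant lines and to 0.45 for ALDH3A1 in the interaction. With a pseudocount of 0.1 the counts were 5 between the resistant lines and 5 in the interaction, and with no filter as well 2 in BxPC-3-GR, 3 in CFPAC-1-GR, 5 between the resistant lines and 5 in the interaction. The correction on this scale gave 8 between the parental lines, 5 between the resistant lines and 5 in the interaction, and turned ALDH7A1 to -0.017 (BxPC-3-GR) and -0.79 (CFPAC-1-GR), ALDH1B1 to 0.50 in CFPAC-1-GR and -0.084 between the resistant lines, and ALDH18A1 to 0.030 in the interaction. The 8 between the parental lines included ALDH1A3, ALDH1B1 and ALDH7A1. The pseudocount of 0.1 with no filter and with the correction were chosen after seeing the data. The cause of these changes was not tested.

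Median-of-ratios and upper-quartile scaling moved the median of all genes by -0.14 and -0.36 (log2) in CFPAC-1-GR, by 0.12 and 0.27 between the parental lines, by -0.08 and -0.10 between the resistant lines and by -0.24 and -0.37 in the interaction. ALDH7A1 in CFPAC-1-GR turned to -0.024 and -0.22 under them. Upper-quartile scaling turned ALDH9A1 in CFPAC-1-GR to -0.037, ALDH1B1 between the resistant lines to -0.012 and ALDH1A3 in the interaction to -0.0055, and made ALDH2 SDE in CFPAC-1-GR (-1.19). Over all genes, the share of calls that were higher went from 63.7% to 52.4% and 35.4% in CFPAC-1-GR, from 44.6% to 57.3% (upper-quartile) between the parental lines and from 62.1% to 46.7% and 39.1% in the interaction. All calls went from 3880 to 1135 with the correction in CFPAC-1-GR, from 5274 to 3195 between the parental lines and from 4643 to 2386 in the interaction, and in BxPC-3-GR from 909 to 1429 with a pseudocount of 0.1 and 2769 with no filter as well. On that scale with no filter, they were 8509 in CFPAC-1-GR, 11018 between the parental lines, 6565 against 2111 between the resistant lines and 9558 in the interaction.

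Samples of the same replicate number did not deviate together (correlations of deviations from -0.13 to 0.0895), and the main fits did not pair them. These correlations cannot show whether samples of the same number were prepared together. The replicate block left the counts at 0, 2, 5, 3 and 2, and the correction with the replicate block gave 0, 1, 5, 3 and 1, with -0.013, 0.37, -0.58, -0.030 and 0.45 for the turned values above.

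Depth limits ALDH1A1 in the BxPC-3 lines, where a few fragments carry the value. FPKM keeps no exact counts, so no counting interval is given.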
